A study of Mus musculus with 20 samples.

Results

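The genes described here handle ketone bodies in the brain: the enzymes Bdh1, Oxct1 and Acat1, the monocarboxylate transporters Slc16a1 (MCT1), Slc16a7 (MCT2) and Slc16a3 (MCT4), and the receptor Hcar2, which the count tables list under its older symbol Niacr1. These 7 genes were chosen by name, by a rule that uses no measured value but with earlier results of these data known, from the 23413 genes counted in the cortex of 20 mice. All 7 were counted, and 6 of them were among the 15660 genes that passed the expression filter. Every mouse carried the human APOE4 allele knocked in at the Apoe locus, the allele tm1.1(APOE*4)Adiuj on the B6(SJL) background, and was 22 months old. The mice had eaten a control diet (CD, named SD in the labels) or a ketogenic diet (KD) in equal calories for 12 months, starting at 10 months. By the study's methods, they were killed after a fast of about 12 hours. The females numbered 5 on the CD and 4 on the KD, and the males 5 on the CD and 6 on the KD, with 1 total RNA library per mouse. All groups share the allele, so no comparison with another Apoe genotype was possible, and reads on mouse Apoe made up 1.33 to 3.34 CPM of each library, where CPM are counts scaled so that every library has the same sum. The counts summed to between 12207161 and 24674575 in CD females and between 13589102 and 25756335 in KD females. In CD males they summed to between 15931191 and 29109990, and in KD males to between 14740328 and 27957243. The library numbers form 2 series of 10 libraries, with totals of 21015275 to 29109990 in series 1 and 12207161 to 17697342 in series 2, and each group has mice in both.

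Ketone bodies are made from fatty acids, mainly in liver mitochondria, and reach the brain with the blood. They cross membranes with a proton through the monocarboxylate transporters: MCT1 is known from the endothelium and glia, MCT2 from neurons, and MCT4 from astrocytes, where it is best known for lactate export. Inside mitochondria the enzyme encoded by Bdh1 oxidizes β-hydroxybutyrate (BHB) to acetoacetate, that encoded by Oxct1 attaches coenzyme A to acetoacetate and commits it to use, and that encoded by Acat1 splits the product into acetyl-CoA for the citric acid cycle. The G-protein-coupled receptor encoded by Hcar2 binds BHB and niacin and is known from immune cells.

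The 250 bases before the RefSeq start site (GRCm38.p6, plus strand) are shown for Oxct1, the most abundant member, and for Slc16a1 and Slc16a3, the transporters with the highest and lowest level. Capitals mark ACGTG on either strand, the core letters bound by hypoxia-inducible factors and, within CACGTG, by E-box factors.
Oxct1: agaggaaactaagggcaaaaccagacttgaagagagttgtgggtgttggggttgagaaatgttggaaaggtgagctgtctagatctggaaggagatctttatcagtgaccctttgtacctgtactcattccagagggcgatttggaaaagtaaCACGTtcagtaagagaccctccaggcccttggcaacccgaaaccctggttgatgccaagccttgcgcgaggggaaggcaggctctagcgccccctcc
Slc16a1: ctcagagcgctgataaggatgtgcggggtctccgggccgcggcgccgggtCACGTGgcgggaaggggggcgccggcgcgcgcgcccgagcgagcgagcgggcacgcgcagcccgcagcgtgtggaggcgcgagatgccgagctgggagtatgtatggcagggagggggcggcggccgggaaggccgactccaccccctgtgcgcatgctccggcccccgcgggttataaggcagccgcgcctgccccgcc
Slc16a3: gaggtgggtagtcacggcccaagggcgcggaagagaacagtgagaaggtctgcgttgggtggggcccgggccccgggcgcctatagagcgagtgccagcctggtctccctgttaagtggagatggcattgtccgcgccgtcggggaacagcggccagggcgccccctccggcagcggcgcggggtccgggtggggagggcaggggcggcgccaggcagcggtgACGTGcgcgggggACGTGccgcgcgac
These windows lie at chr15:4026178-4026427 (Oxct1), chr3:104638414-104638663 (Slc16a1) and chr11:120948817-120949066 (Slc16a3). The letters ACGTG occur on at least 1 strand in 16.6% of the 32851 windows of this length in the table. The Slc16a1 window holds 1 stretch CACGTG, which counts once on each strand, beginning 200 bases before the start. The Slc16a3 window holds 2 separate matches, beginning 27 and 14 bases before it, and the Oxct1 window holds 1, 97 bases before it. The windows of Slc16a1 and Slc16a3 were 76.4% and 73.6% G or C with 37 and 29 CpG pairs, and that of Oxct1 was 52.0% G or C with 6. Of the 7 genes 4 have windows in the table. Neither of the Bdh1 windows holds ACGTG. A match of letters is a description of the sequence, and no binding was measured.

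The libraries differed in markers of sex and of other brain regions. CD female E228 had 14.01 CPM of the Y-linked gene Ddx3y, against at most 1.64 CPM in the other females and at least 164 CPM in the males. KD male E254 had 7.59 CPM of Xist, which is transcribed from the inactive X chromosome, while other males reached 2.13 CPM at most and females had 319 CPM or more. The summed level of 12 striatal marker genes was 2499, 2750 and 3170 CPM in KD females E68, E61 and E207, and 341 CPM in KD female E227. In CD females it was 239 to 325 CPM in all mice except E249, which had 1155 CPM. In KD male E59 it was 3732 CPM, against 264.1 to 632 CPM in the other males, and the sum of 10 choroid plexus markers was 3929 CPM. The sums of the cortical excitatory markers, led by Slc17a7, were 479, 545 and 632 CPM in E61, E68 and E207 and 498 CPM in E249, against 850 to 1222 CPM in the other libraries. E227, E249, E228 and E59 thus differed from the rest of their own group, while E61, E68, E207, E249 and E59, with over 1000 CPM of striatal markers, differed from the series as a whole. For some genes, values are given without each of these sets. E254 is in neither set. The first leaves 3 KD females, all with high striatal sums, beside CD females without such a sum. The second, chosen after the data were seen, leaves E227 as the only KD female, whose spread is then assumed to be that of the other groups. Neither set is independent evidence of a diet effect. Markers of the labelled cortex were present in every library, and the lowest of these sums of 10 markers was the 479 CPM of E61. In such bulk tissue, fewer cells of a type and less RNA per cell cannot be told apart.

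Within each group the members kept one order of level. Per length (CPM per kilobase of merged exons, mean ± SD of 20 mice), Oxct1 was at 154 ± 12.1, higher than 99.2% of the genes tested. Acat1 was at 34.5 ± 2.1 and Slc16a1 at 23.8 ± 3.38, followed by Bdh1 at 8.82 ± 1.66 and Slc16a7 at 3.15 ± 0.501. The lowest levels per length were those of Slc16a3, at 0.394 ± 0.148, and Hcar2, at 0.156 ± 0.105. For the first 5 steps of this order, the higher gene was higher in 20 of 20 mice and its range did not overlap that of the lower gene in any of the 4 groups. The narrowest of these steps was from Acat1 to Slc16a1, a ratio of 1.05 to 1.82 within a mouse. Slc16a3 was higher than Hcar2 in 18 of 20 mice, with a ratio of means of 2.53, and their ranges overlapped in both female groups but in neither male group. The plot of levels per length shows the order in each group.

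**Figure D1:**
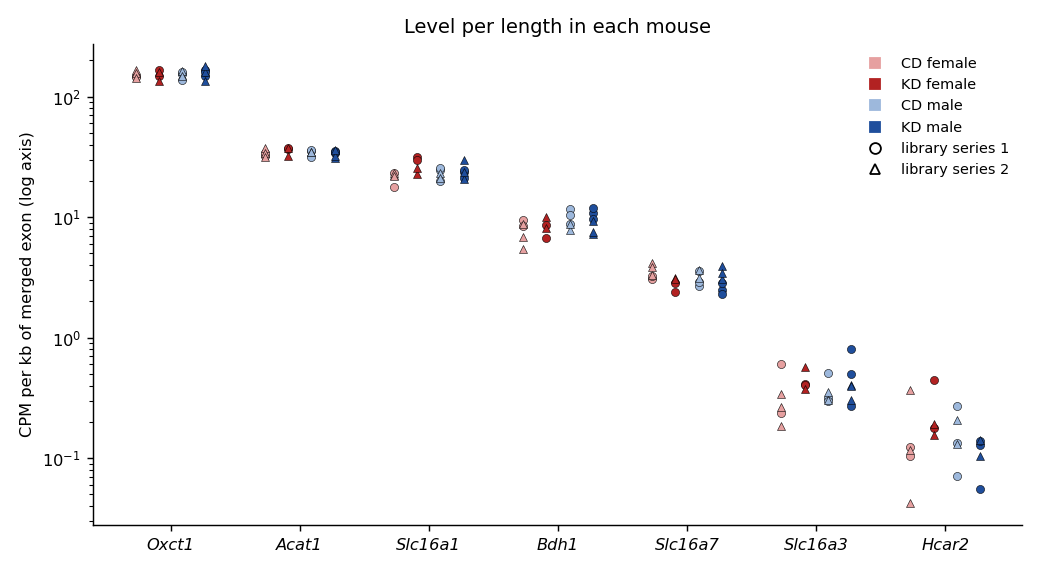
Level per length of the 7 genes in each mouse (CPM per kilobase of merged exons, log axis), with colours for diet and sex and symbols for the library series; 1 KD male with 0 Hcar2 counts is not drawn. Oxct1 averaged 154 and Hcar2 0.156 over the 20 mice, and the order of the group means was the same in the 4 groups.

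The levels of the enzymes Oxct1, Acat1 and Bdh1 overlapped between the 2 diets in both sexes. Oxct1 (chr15:4026383-4155344, GRCm38) was at 526.1, 539, 548, 583 and 613 CPM in CD females and at 498, 544, 597 and 617 CPM in KD females. In males it was at 506, 550, 567.6, 596 and 605 CPM on the CD, and from 499.8 to 666 CPM with a median of 593 CPM on the KD. The diets overlapped in both sexes, with means of 562 ± 35.6 and 564 ± 53.8 CPM in CD and KD females (SD, n = 5 and 4). KD and CD were compared in edgeR by the quasi-likelihood F test, with FDR by the Benjamini-Hochberg method. On the KD, Oxct1 differed by a log2 fold change of -0.05 (SE 0.104, FDR 0.933) in females and 0.04 (SE 0.0933, FDR 0.9998) in males. The 95% intervals ran from 0.832-fold to 1.12-fold in females and from 0.895-fold to 1.17-fold in males. Exons of Oxct1 overlap the opposite-strand transcript BC037032, and since the strand counted is not given in the sources used here, their reads cannot be told apart.

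Acat1 (chr9:53580522-53610382) was at 118, 122, 127, 128 and 140 CPM in CD females and at 121, 139, 140 and 141 CPM in KD females. The KD females other than E207 lay near the highest CD female, and 1 of 4 was above all CD females. In males Acat1 was at 119 to 137 CPM on the CD and at 116 to 137 CPM on the KD. In females the log2 fold change was 0.03 (SE 0.0839, FDR 0.954), and in males -0.04 (SE 0.0756, FDR 0.9998), with an interval in females of 0.904-fold to 1.15-fold.

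Bdh1 (chr16:31422280-31458901) varied more between mice, from 21.0 to 46.1 CPM. CD females had 21.0, 26.8, 33.0, 33.8 and 36.7 CPM and KD females 26.2, 31.5, 33.5 and 39.4 CPM, so the KD mice lay within or just beyond the CD range. CD males had 30.7, 33.8, 34.4, 40.7 and 45.3 CPM, and KD males 28.4 to 46.1 CPM. Bdh1 gave 0.05 (SE 0.144, FDR 0.959) in females on the log2 scale and -0.01 (SE 0.130, FDR 0.9998) in males. Without E227, E249, E228 and E59 the value in females was -0.13 (FDR 0.641). Without the 5 mice with high striatal sums it was 0.37, with E227, the highest KD female, alone on the KD. Within series 1 and series 2 alone the values in females were -0.27 and 0.31. Between the sexes on the CD, with all mice, the log2 fold change of females against males was -0.24 (FDR 0.978). Exons of Bdh1 overlap the antisense gene Gm15743.

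Slc16a1 and Slc16a7 showed the only diet differences in females among the 6 tested genes with an unadjusted p under 0.05, and neither passed the adjusted test. Slc16a1 (chr3:104638668-104658462) was at 79.1, 96.7, 99.5, 102 and 102 CPM in CD females and at 101, 114, 131 and 140 CPM in KD females. Of 4 KD females 3 were above every CD female, and only E207 lay within the CD range. The log2 fold change in females was 0.28 (SE 0.124, a 1.21-fold difference, unadjusted p = 0.0390 in the edgeR fit), with an FDR of 0.408. In CD males Slc16a1 was at 88.7, 93.0, 102, 108 and 113 CPM, and in KD males at 91.2 to 131 CPM with a median of 105 CPM. The male groups overlapped over most of their range, with a log2 fold change of 0.05 (SE 0.112, FDR 0.9998). The difference between the sexes in the diet effect was 0.23 (SE 0.169, FDR 0.9999). Within library series 1 the value in females was 0.54 (FDR 0.141), from 2 CD and 2 KD mice, and within series 2 it was 0.04 (FDR 0.949), from 3 CD and 2 KD mice. Leaving out 1 mouse at a time gave 0.19, without CD female E62, to 0.36, without KD female E207.

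Slc16a7 (chr10:125219270-125389465) lay in the opposite direction. CD females had 36.1, 38.1, 39.2, 45.5 and 48.8 CPM, and KD females 28.6, 33.6, 36.4 and 37.1 CPM. All 4 KD females were below the CD median and 2 were below every CD female. The log2 fold change in females was -0.32 (SE 0.129, a ratio of 0.801, unadjusted p = 0.0225 in the edgeR fit), with an FDR of 0.344. CD males had 31.5, 34.4, 37.2, 41.9 and 43.4 CPM, and KD males 27.4 to 46.6 CPM with a median of 35.2 CPM. In males the log2 fold change was -0.14 (SE 0.116, FDR 0.9998), and the interaction was -0.18 (SE 0.174, FDR 0.9999). Leaving out 1 mouse at a time gave -0.20, without CD male E264, to -0.04, without CD male E66, in males. The interaction was then -0.28, without E66, to -0.11, without E264. Averaged over both sexes the log2 fold change was -0.23 (SE 0.0863, FDR 0.227), and without CD female E249 it was -0.25 with an FDR of 0.0924. Without E249, 791 of all genes were called at FDR 0.1 and a 1.5-fold change, against 42 with all mice. Slc16a7 did not reach that fold. Of the 6 genes, Slc16a7 was the one that differed between library series, higher in series 2 by 0.33 (FDR 0.0111), as did 33.2% of all genes at FDR 0.1. Within series 1 and series 2 the values in females were -0.29 and -0.35, and in males -0.30 and 0.05. Exons of Slc16a7 overlap the opposite-strand transcript Gm47862.

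**Figure D2:**
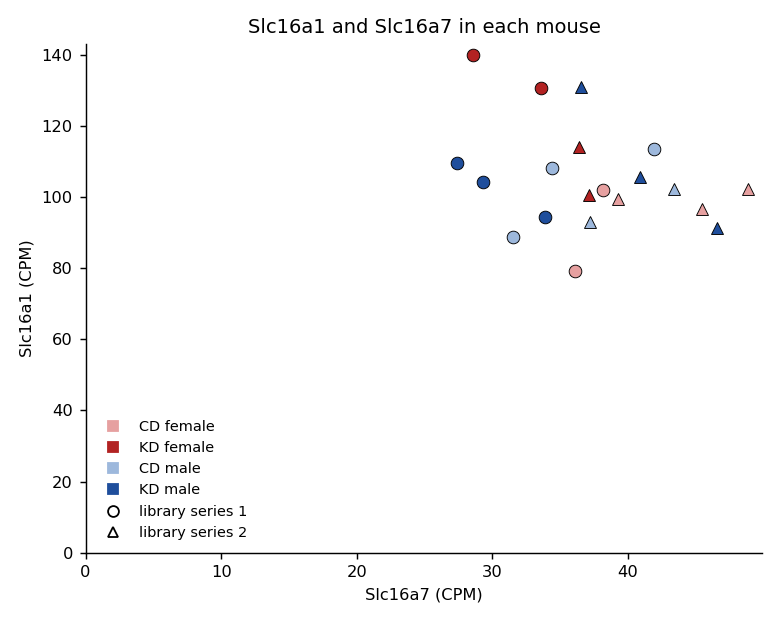
Slc16a1 against Slc16a7 (both in CPM) with 1 point per mouse, coloured by diet and sex, with circles for library series 1 and triangles for series 2. The KD females lie at 101 to 140 CPM of Slc16a1 and 28.6 to 37.1 CPM of Slc16a7, and the CD females at 79.1 to 102 and 36.1 to 48.8 CPM.

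The ratio of the 2 transporters, computed after their values had been seen and so given without a test, is shown point by point in the plot of Slc16a1 against Slc16a7. Per length, Slc16a1 was 6.22 ± 0.703 times Slc16a7 in CD females (5.602 to 7.15) and 9.79 ± 2.56 times in KD females (7.26 to 13.1). Each of the 2 genes alone overlapped between the diets, and no share of non-overlap over ratios of other genes was computed. In males the ratio was 7.23 ± 0.807 on the CD and 8.23 ± 2.04 on the KD, with ranges of 6.31 to 8.40 and 5.24 to 10.7.

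Slc16a3 (chr11:120948480-120960868) was scarce. CD females had 0.983, 1.26, 1.41, 1.83 and 3.24 CPM and KD females 1.99, 2.15, 2.21 and 3.05 CPM. All 4 KD females were above the CD median, but the highest value belonged to CD female E62. CD males had 1.57 to 2.69 CPM and KD males 1.45 to 4.32 CPM. The log2 fold changes were 0.37 (SE 0.319, FDR 0.755) in females and 0.35 (SE 0.285, FDR 0.9998) in males, with an interval in females from 0.814-fold to 2.05-fold. Leaving out 1 mouse at a time gave 0.14, without KD female E227, to 0.68, without CD female E62, in females, and 0.12, without KD male E64, to 0.48, without KD male E59, in males. Without E227, E249, E228 and E59 the value in females was -0.04, so its direction rested on them. Without the 5 mice with high striatal sums it was 0.86, with E227 alone on the KD.

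Hcar2 (chr5:123863570-123865499) was at the limit of detection, with 0 to 22 counts per library, and did not pass the filter. CD females had 0.0819, 0.203, 0.226, 0.238 and 0.715 CPM, and KD females 0.299, 0.345, 0.368 and 0.854 CPM. CD males had 0.137, 0.251, 0.260, 0.402 and 0.524 CPM. KD males had 0 to 0.271 CPM, and the 0 counts of E254 allow up to 0.181 CPM by counting error alone. All 4 KD females were above the CD median and the groups overlapped in both sexes. The mean log2 CPM, with a prior count of 2, gave a KD minus CD difference of 0.62 in females and of -0.61 in males. By the two-sided exact permutation test, over 126 and 462 splits of the mice, p was 0.238 in females and 0.143 in males. The difference in females was 0.93 without CD female E265, whose Hcar2 was the highest of its group. Of 7 neutrophil markers, led by S100a9, 5 had 0 counts in at least 1 library, and their sum was 0.905 to 3.29 CPM in KD females and 1.46 to 11.5 CPM in CD females. Of the 3 tested, 2 had lower values on the KD in females with an unadjusted p under 0.05, beside 5.5% of all genes, with a median log2 fold change of -1.52.

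**Figure D3:**
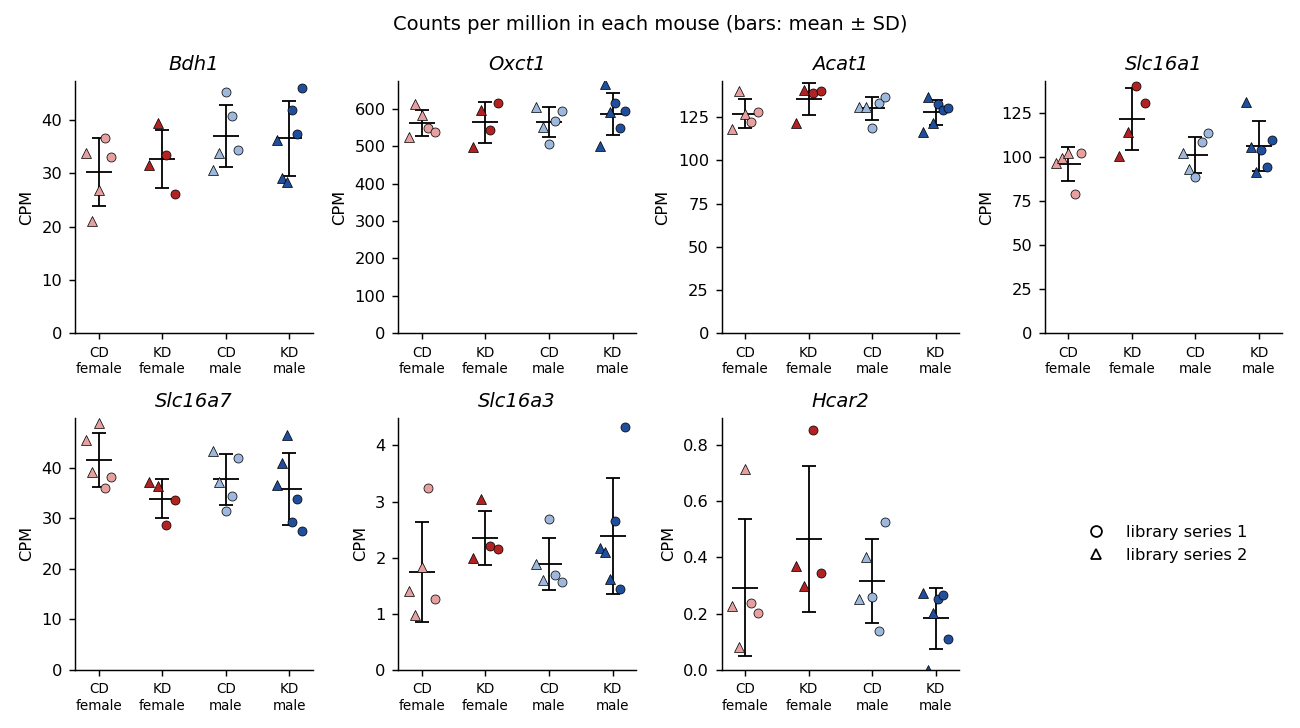
CPM of the 7 genes in each mouse by diet and sex, on axes that start at 0; horizontal bars and whiskers are the mean and SD, circles library series 1 and triangles series 2. For every gene the CD and KD mice overlap in both sexes; for Slc16a1, 3 of 4 KD females lie above all CD females.

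Counted over the members, 0 of 6 passed FDR 0.1 with a 1.5-fold change in females, where 0.0447% of all tested genes did, and 0 of 6 in males, where 0% did. At an unadjusted p under 0.05 there were 2 of 6 in females, 1 higher and 1 lower, beside 11.4% of all genes (5.86% higher and 5.5% lower), and 0 of 6 in males, beside 3.56%. In none of the 7 genes were the diets free of overlap, which held for 2.1% of tested genes in females and 0.217% in males. The median log2 fold change of the 6 genes was 0.04 in females and 0.01 in males, and over all genes it was 0.01 and -0.003. The 95% interval lay within a 1.5-fold change in either direction for 4 of 6 genes in females, beside 52.3% of all genes, and for 5 of 6 in males, beside 62.6%. In females the exceptions were Slc16a7 and Slc16a3, and in males Slc16a3. The interaction was at FDR 0.9999 for each of the 6 genes, none of which had an unadjusted p under 0.05, beside 0% of all genes called and 2.14% with such a p. Averaged over both sexes, 0 of 6 were called, beside 0.268% of all genes, and 1 of 6 had an unadjusted p under 0.05, beside 13.9%. Without E227, E249, E228 and E59, the expression filter was applied anew and passed 15895 genes, Hcar2 among them. In that fit 0 of 7 members were called in females, beside 11.5% of all genes. The values in females were then 0.32 for Slc16a1 (FDR 0.238) and -0.36 for Slc16a7 (FDR 0.179). Without the 5 mice with high striatal sums, they were 0.17 for Slc16a1 and -0.46 for Slc16a7, with E227 alone on the KD.

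**Figure D4:**
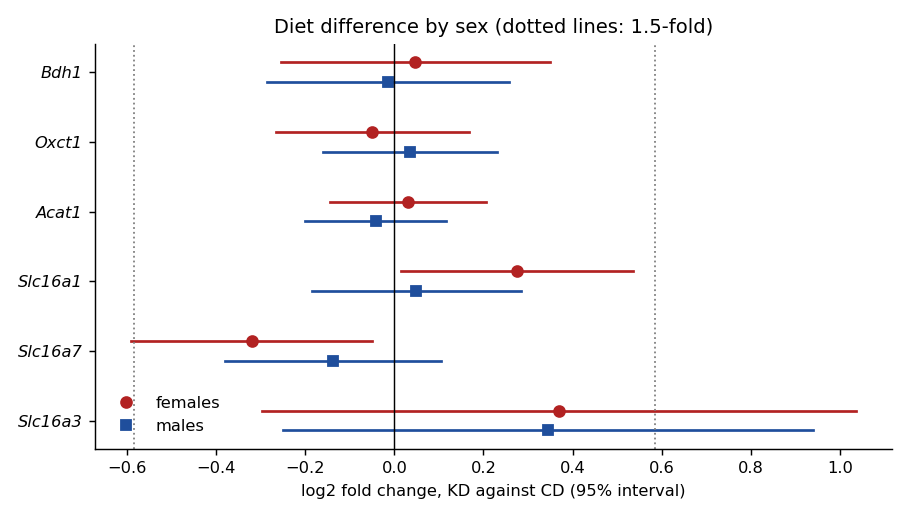
Log2 fold change of KD against CD with its 95% interval in females (circles) and males (squares) for the 6 genes that passed the filter; dotted lines mark a 1.5-fold change. In females the interval of Slc16a1 lies above 0 and that of Slc16a7 below 0, before adjustment over all genes, with FDR 0.408 and 0.344.

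The spread between mice also set the members apart from each other. The biological coefficient of variation was 10.1% for Acat1, lower than in all but 4.00% of the tested genes, and 11.8% for Oxct1. It was 13.8% for Slc16a1, 14.1% for Slc16a7, 15.6% for Bdh1 and 30.8% for Slc16a3, with a median of 19.0% over all tested genes. After group and series means were removed from log2 CPM, Acat1 and Oxct1 varied together over the 20 mice (Pearson r = 0.861), whereas Bdh1 was related to them with r = -0.487 and -0.500. Slc16a1 and Slc16a7 had r = 0.005. These points share library and RNA quality, and the values are descriptions.

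The genes most like each member over the same 20 libraries were different for each transporter and partly shared by the enzymes. Taf9, a subunit of the basal transcription factor TFIID, was among the 3 most alike for Oxct1 (r = 0.951) and for Acat1 (r = 0.876). The others for Oxct1 were Slc25a14, a mitochondrial carrier, at 0.903, and Dstn, an actin-depolymerizing protein, at 0.901. Those for Acat1 were the proteasome subunit Psma4 at 0.899 and Cops4 of the COP9 signalosome at 0.870. For Bdh1 they were Plekhm2, R3hdm4 and the neuronal kinase Brsk1, at 0.973, 0.970 and 0.969. For Slc16a7 they were the kinase Rock2 at 0.918, Ttc39b at 0.912 and the palmitoyltransferase Zdhhc21 at 0.886, and for Slc16a3 Tenm2 at 0.924, Aloxe3 at 0.885 and Rgs16 at 0.881. Slc16a1 had the loosest relations, with Gbp6 at 0.767, the sterol-synthesis enzyme Idi1 at 0.752 and Meox1 at 0.737.

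Cell type markers are given beside these values, with 0 genes of any list at FDR 0.1 in either sex. The 10 microglial markers had higher values in KD females in 10 of 10 cases, beside 52.7% of all genes, and 5 had an unadjusted p under 0.05, beside 5.86% of all genes in that direction, with a median log2 fold change of 0.41. Their sum was 382 to 530 CPM in CD and 497 to 742 CPM in KD females. It was 742, 672 and 548 CPM in E61, E68 and E207, which had high striatal sums. In E227 it was 497 CPM, within the CD range. The 10 oligodendrocyte markers had a median of 0.25 and sums of 2780 to 3347 CPM in CD and 3294 to 4254 CPM in KD females. Of the KD females, E227 had 3294 CPM, within the CD range, and E61, E68 and E207 had 4043 to 4254 CPM. The 10 neuronal markers, led by Snap25, had a median of -0.14, with 2 of 10 lower at an unadjusted p under 0.05, beside 5.5% of all genes, and their sum was 7602 to 10123 CPM in CD and 7364 to 8301 CPM in KD females. The 12 striatal markers, led by Pde10a, had higher values in 12 of 12 cases, 9 at an unadjusted p under 0.05, with a median of 2.10. The cortical excitatory markers had a median of -0.97. At an unadjusted p under 0.05, 6 of 10 were lower, beside 5.5% of all genes, and 1 was higher, beside 5.86%. Endothelial markers, led by Slco1a4, had a median of 0.09 and sums of 290 to 413 CPM in CD and 289 to 409 CPM in KD females. Pericyte markers, led by Rgs5, had a median of 0.10, and astrocyte markers, led by Slc1a2, of 0.16. No marker of the endothelial, microglial, oligodendrocyte or neuronal lists was at 0 in any library. In males, where Slc16a1 and Slc16a7 gave 0.05 and -0.14, the striatal markers had higher values on the KD in 12 of 12 cases, beside 49.1% of all genes, with a median of 1.28 and 1 at an unadjusted p under 0.05. Their sum was 3732 CPM in E59 and 269 to 399.7 CPM in the other 5 KD males, within the 264.1 to 632 CPM of CD males. The oligodendrocyte markers had higher values in 0 of 10 cases in males, with a median of -0.43 and 2 lower at an unadjusted p under 0.05, beside 1.19% of all genes. The tested choroid plexus markers, led by Enpp2, had higher values in 8 of 8 cases, with a median of 1.94 and 6 at an unadjusted p under 0.05, beside 2.37% of all genes. The sum of the 10 choroid plexus markers was 3929 CPM in E59, 218 to 417 CPM in the other 5 KD males and 391 to 542 CPM in CD males, so the higher sum was that of E59 alone. In males the microglial and neuronal medians were 0.09 and -0.14. The part of these cell types in the values of Slc16a1 and Slc16a7 was not tested.

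The other genes of ketone, monocarboxylate and lactate handling were taken from 7 lists of 44 genes, of which 35 passed the filter. In females 19 of the 35 were higher and 16 lower on the KD, with 52.7% of all genes higher, and in males 18 were higher and 17 lower, with 49.1% of all genes higher. None passed FDR 0.1 in either sex, in the interaction or averaged over the sexes. Their median log2 fold change was 0.04 for the females and 0.01 for the males, beside 0.01 and -0.003 for all genes. At an unadjusted p under 0.05, 1 of 35 was higher in females and 1 in males, where 5.86% and 2.37% of all genes were higher.

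Of ketone synthesis, 4 of 4 genes were tested and 4 were higher in females, with a median of 0.38, while 2 were higher and 2 lower in males, with a median of 0.02. None passed FDR 0.1 in either sex. Hmgcll1 was at 5.12 CPM per kilobase, with a log2 fold change of 0.02 (SE 0.130, FDR 0.978) in females and 0.05 (SE 0.118, FDR 0.9998) in males. Without E227, E249, E228 and E59, 3 of the 36 pathway genes of all lists that then passed the filter were called in females. Of these, 2 were higher and 1 was lower, and 11.5% of all genes were called.

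Of ketone use, 7 of 9 genes were tested, 3 higher and 4 lower in females. Sucla2, a subunit of the enzyme that interconverts succinate and succinyl-CoA, the donor of coenzyme A, was at 75.7 CPM per kilobase. Citrate synthase Cs was at 46.2. Their log2 fold changes in females were -0.08 (SE 0.148) and 0.04 (SE 0.0704). Suclg1, another subunit of the enzyme of Sucla2, was named after its values were seen. It was the 1 gene of the 7 lists whose diets did not overlap in females, beside 2.1% of all genes. It was at 91.2, 92.6, 100.5, 100.8 and 103 CPM in CD females and at 104.1, 104.2, 112 and 119 CPM in KD females, with a log2 fold change of 0.10 (SE 0.0657, FDR 0.629).

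Of the wider monocarboxylate family, 11 of 13 genes were tested, 4 higher and 7 lower in females and 6 higher and 5 lower in males. Slc16a4 was at 2.15 CPM per kilobase, with log2 fold changes of -0.11 (SE 0.264) in females and 0.16 (SE 0.235) in males.

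Of the 3 chaperones that carry monocarboxylate transporters to the membrane, Nptn was at 125 and Bsg at 109 CPM per kilobase, and Emb had group means of 7.29 to 9.62. The log2 fold changes of Nptn and Bsg in females were -0.21 (SE 0.124, FDR 0.584) and 0.16 (SE 0.118, FDR 0.696). Of the metabolite receptors, Hcar1, the lactate receptor, was at 0.412 CPM per kilobase with a value of 0.36 (SE 0.622) in females, and Ffar3, at 0.0289, did not pass the filter. Lactate dehydrogenases were at 210.1 (Ldhb) and 65.1 (Ldha) CPM per kilobase, with values in females of 0.06 (SE 0.112) and -0.08 (SE 0.167). Among the regulators of ketone synthesis, Ppargc1a and Sirt3 were the highest per length, at 11.3 and 5.64, with values in females of -0.14 and 0.05. Exons of Sirt3 overlap Psmd13 on the opposite strand.

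Fgfr1, a receptor through which the fasting hormone FGF21 signals, was at 14.1, 17.2, 17.6, 20.6 and 21.1 CPM in CD females and at 19.6, 23.5, 24.8 and 32.3 CPM in KD females. Of 4 KD females 3 (E61, E68 and E207) were above every CD female, and E227 lay within the CD range. The striatal sums were 2499 to 3170 CPM in those 3 mice and 341 CPM in E227. No value of Fgfr1 without them is given here, and the part of striatal tissue in it was not tested. Fgfr1 gave a log2 difference of 0.40 (SE 0.182, unadjusted p = 0.0387 in the edgeR fit, FDR 0.407) in females and of 0.28 (SE 0.164, FDR 0.9998) in males. Averaged over the sexes it was 0.34 (SE 0.122, FDR 0.207). The plot of the other pathway genes gives the value of 32 of them with its interval.

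**Figure D5:**
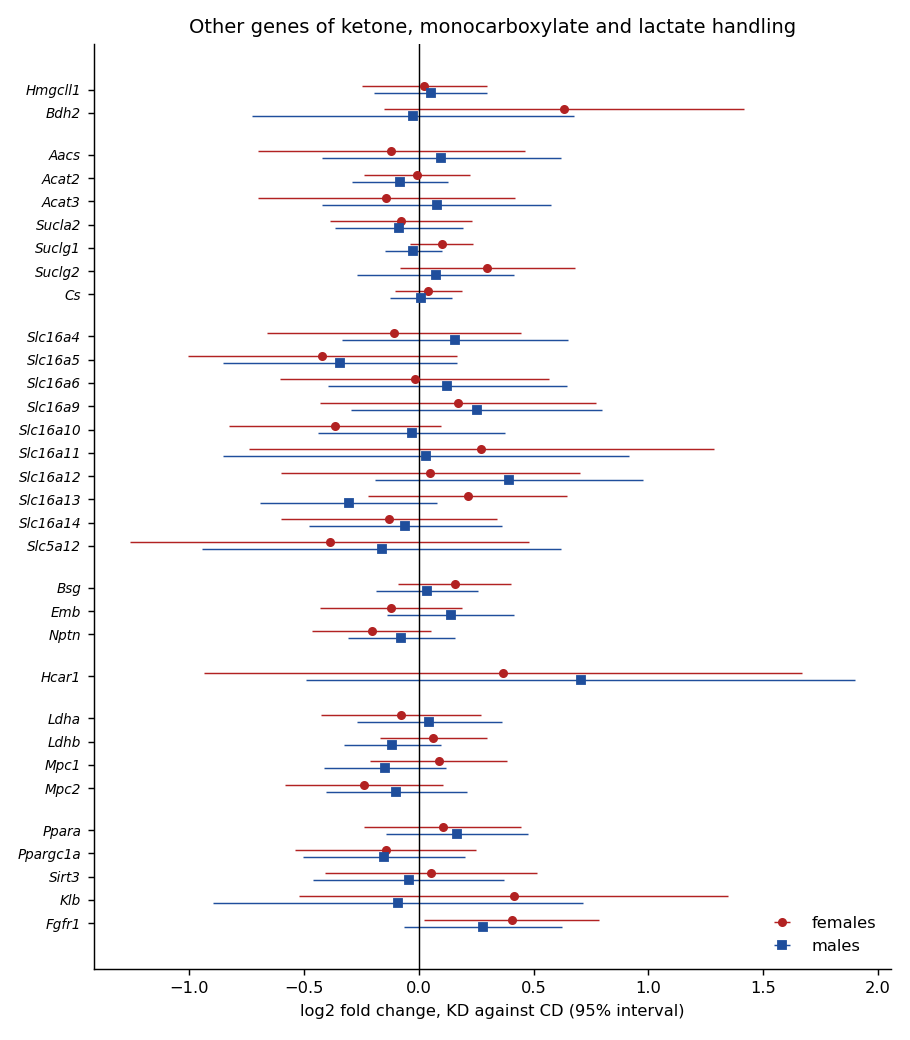
Log2 fold change of KD against CD with its 95% interval in females (circles) and males (squares) for 32 of the 35 other genes of ketone, monocarboxylate and lactate handling that passed the filter, grouped by list. Of those drawn, the interval of Fgfr1 in females lies above 0, and this gene did not pass the adjusted test.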

How the data were processed

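Cortex RNA of 20 mice was measured with 1 library per mouse, prepared from 500 ng of total RNA with the TruSeq Stranded Total RNA kit and sequenced as 50-bp read pairs. The deposited values are whole-number counts per gene, not normalized, which the authors obtained after alignment with STAR to mm10 per the labels. Versions, annotation and the strand counted are not given in the sources used here. Groups came from the sample titles, and library series from the library numbers.

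The 7 members and all lists were chosen with earlier results of these data known. From the deposited counts, CPM and, with GENCODE exons of GRCm38 (22982 of 23413 symbols matched), CPM per kilobase were computed. In R 4.3.3, edgeR 4.0.16 was run on the 15660 genes passing filterByExpr, with upper-quartile normalization, the 4 groups and the library series, robust quasi-likelihood F tests and Benjamini-Hochberg adjustment. A gene was called (DEG) at FDR 0.1 and a 1.5-fold change. The model was tested on simulated data. Hcar2 was compared by an exact permutation test of log2 CPM. The study's RUVg step was an alternative only, with 1 factor and all but the 5000 genes of smallest p as controls, since its text states neither. The other alternatives were TMM, DESeq2's size factors and DESeq2 1.42.0, other filters, no series term, each sex or series alone, the likelihood ratio test, other thresholds, and leaving out mice.

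Genes named are the members, pathway genes with an unadjusted p under 0.05 in a diet contrast or the interaction, the 2 highest per length in each list, the 3 genes most alike to each member, and each marker list's most abundant gene, of which some are not reported here. Coordinates are those of GENCODE, and promoter windows those of RefSeq. Of 41 pairs of mice within a group, none differed by as little as sampling noise (chi-square per degree of freedom 6.90 to 109). P-values set each difference against the spread between mice within these groups, and the intervals of the fold changes include that spread. A limit computed from the counts of a single library covers counting error only. Markers of 8 red blood cell genes, led by Alas2, summed to 4.00 to 16.6 CPM, and 4 of the 6 counted were at 0 in all libraries.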

Additional observations from a re-analysis of the deposited data

Results flagged for a closer look

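In groups of 4 to 6 mice, 5 of 32 sets of values had 1 mouse far from the others by Dixon's ratio of its gap to the range, where about 1.6 would be so by chance. Acat1 in KD female E207 was 121 CPM, against 139 to 141 CPM in the other KD females (ratio 0.906). Slc16a1 in CD female E62 was 79.1 CPM, against 96.7 to 102 CPM (ratio 0.761), and the diet difference of Slc16a1 in females was 0.19 (log2) when it was left out. Slc16a3 in CD male E51 was 2.69 CPM, against 1.57 to 1.88 CPM (ratio 0.721). Hcar2 in CD female E265 was 0.715 CPM, against 0.0819 to 0.238 CPM (ratio 0.753), and in KD female E61 it was 0.854 CPM, against 0.299 to 0.368 CPM (ratio 0.876).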

How the results depend on the processing

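For the members, under alternatives other than leaving out 1 mouse, 272 values kept their direction and side of the threshold and 30 changed sign, none of them past the threshold. With 1 mouse left out, 463 kept both, 35 changed sign and 2 passed the threshold, FDR 0.1 or, for Hcar2, p of 0.05. These 2 were Slc16a7 averaged over the sexes without CD female E249 (-0.25, FDR 0.0924) and Hcar2 in females without CD female E265 (0.93, exact permutation p = 0.0286, the smallest that the mice left allow). E265 had the highest Hcar2 of its group, so this is no support for a difference. Without CD female E249, 791 of all genes were called averaged over the sexes, against 42 with all mice. The lowest and highest values of these 2 results with 1 mouse left out were -0.26 to -0.18 and 0.34 to 0.93. Slc16a1 was higher and Slc16a7 lower in KD females under each alternative that left out no single mouse, from 0.04 to 0.54 and from -0.46 to -0.29, and leaving out 1 mouse gave 0.19 to 0.36 and -0.39 to -0.27.

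The values that changed sign follow. In series 1 alone, females gave -0.27 for Bdh1, 0.0576 for Oxct1 and -0.0678 for Slc16a3, and males 0.0173 for Bdh1 and -0.0617 for Slc16a1. In series 1 the interaction was -0.28 for Bdh1, 0.0309 for Oxct1, 0.00696 for Slc16a7 and -0.53 for Slc16a3, and the average over the sexes was -0.12 for Bdh1, 0.0421 for Oxct1 and 0.0407 for Acat1. In series 2 alone, Acat1 was -0.0421 in females, Slc16a7 0.0477 in males and the interaction of Slc16a1 -0.13. With RUVg, Bdh1 was -0.00824 in females, and the averages were -0.0196 for Bdh1, 0.00768 for Oxct1 and 0.00378 for Acat1. With at least 10 counts in every library, the average of Acat1 was 0.000378. Without E227, E249, E228 and E59 (the 4 mice), Bdh1 was -0.13 in females, 0.00614 in males, -0.14 in the interaction and -0.0614 averaged, and Slc16a3 was -0.0400 in females and -0.53 in the interaction. Without the 5 mice with high striatal sums, a setting chosen after the data were seen, Oxct1 was 0.0329 in females and 0.0375 averaged, Bdh1 0.00821 in males and Acat1 0.0336 averaged. With 1 mouse left out, Bdh1 ranged from -0.11 to 0.17 in females, -0.0605 to 0.0316 in males, -0.10 to 0.18 in the interaction and -0.0629 to 0.0795 averaged. Oxct1 ranged from -0.12 to 0.0142 in females, -0.0102 to 0.0828 in males and -0.0420 to 0.0218 averaged. Slc16a1 in males ranged from -0.0156 to 0.11, the interaction of Slc16a3 from -0.21 to 0.34, and the average of Acat1 from -0.0275 to 0.0162.

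The number of DEGs over all genes depended far more on the setting. The main counts were 7 in females, 0 in males, 0 in the interaction, 42 averaged over the sexes, 6 between the sexes on the CD and 12 on the KD. For females it was 12 with no filter, 4 with no series term, 1 with each sex alone, 865 in series 1, 0 in series 2, 220 by the likelihood ratio test, 253 by DESeq2, 21 with RUVg, 2 at FDR 0.05 with no fold minimum and 1827 without the 4 mice. For the interaction it was 14 in series 1, 1 by the likelihood ratio test, 1 by DESeq2 and 869 without the 4 mice. Averaged, it was 886 in series 1, 0 in series 2, 370 by the likelihood ratio test, 351 by DESeq2, 157 with RUVg, 3 at FDR 0.05 and 1145 without the 4 mice. Between the sexes on the CD it was 1 with at least 10 counts in every library and 1 in series 2. On the KD it was 19 with no filter, 1 with at least 10 counts, 690 in series 1, 1 in series 2, 285 by the likelihood ratio test, 282 by DESeq2, 43 with RUVg and 2003 without the 4 mice. Without the 5 mice with high striatal sums, the counts that involve KD females rest on E227 alone and are not given. With 1 mouse left out the counts were 0 to 1046 in females and 2 to 791 averaged, both highest without CD female E249. They were 0 to 41 in the interaction, 5 to 9 between the sexes on the CD and 8 to 1346 on the KD. The causes were not tested.

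No paired analysis was possible because each mouse has its own identifier, which occurs in 1 group only. Library totals limit Hcar2, whose 3-count floor was 0.103 to 0.246 CPM, and the small groups limit the width of each interval.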
